A study of Drosophila melanogaster with 42 samples.

Results

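The 76 genes described here carry only a CG number as their name in the deposited table and were most abundant, in control flies, at the stage labelled P3. They were chosen from 6435 such genes among 15038 genes in all. Levels were counts scaled to the library total (CPM), averaged over the 3 control libraries of a stage, and a gene entered when its control P3 mean was at least 10 CPM and when P3 plus 1 exceeded the highest other control stage plus 1 by more than 2-fold. Of the 3384 CG-named genes that passed the 10 CPM minimum, 76 (2.25%) met the ratio, so a planned limit of 100 genes was not reached. Of the 4907 genes with other names that passed the minimum, 56 (1.14%) met the same criteria. Control P3 values chose the genes, so their height in controls is a description and is not tested.

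RNA of whole Drosophila melanogaster was sequenced in 42 libraries, with 3 libraries per genotype and stage, for 2 genotypes at 7 stages whose labels run WPP, then P1 to P4, then A1 and A6. The genotypes are labelled Control and ERR mutant. ERR is the fly estrogen-related receptor, a nuclear receptor. All animals of both genotypes had been heat-treated on days 4 and 5 AEL, and the labels add that experimental and control animals differed in the presence or absence of an hsFLP transgene, a heat-inducible recombinase, without saying which group carried it. A difference between the genotypes can therefore not be told apart from a difference made by that transgene. The labels do not spell out P1 to P4 or A1 and A6, give no sex or age beyond the stage, and do not tell how animals were pooled or kept apart for replicate libraries. P-values thus measure the spread between these libraries, which may be technical.

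Insect cuticle is a layered extracellular matrix of chitin fibres and structural proteins, secreted by the epidermis and by the lining of the tracheal tubes. During metamorphosis the fly lays down a pupal cuticle and then builds the adult cuticle beneath it. Each layer is made with its own set of proteins in a short burst of transcription. In whole animals, fewer cells of a type and less RNA in each cell cannot be told apart.

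Library totals ran from 4308848 to 7737140 counts, and none of the 42 replicate pairs agreed within sampling noise. ERR, the gene named in the mutant, had 8.83 to 11.7 CPM in the P3 control libraries and 4.41 to 7.10 CPM in the P3 mutants, and was lower in mutants without overlap at all 7 stages. In the library mutant P1 replicate 1, 2 RNAs of male flies were low, with 0.338 CPM of the dosage compensation RNA lncRNA:roX2 and 1.35 CPM of the sperm-tail gene Mst87F, against 10.4 to 22.7 CPM and 76.6 to 122.7 CPM over the P1 libraries other than this one. Without that library 28 of the genes were called lower and 6 higher in mutants at P2, against 26 and 5 with it.

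The burst was large in both genotypes. The 76 genes together held 4.40%, 5.45% and 5.33% of all counts in the 3 control P3 libraries and 4.40%, 5.15% and 6.21% in the 3 mutant P3 libraries. Their share was 0.0367% to 0.0424% at WPP, 0.127% to 0.333% at P2, 0.511% to 0.653% at P4 and 0.0683% to 0.0752% at A6 over both genotypes. CG34461 alone made up much of it, and without it the P3 shares were 2.54% to 3.16% in controls and 2.63% to 3.71% in mutants.

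**Figure D1:**
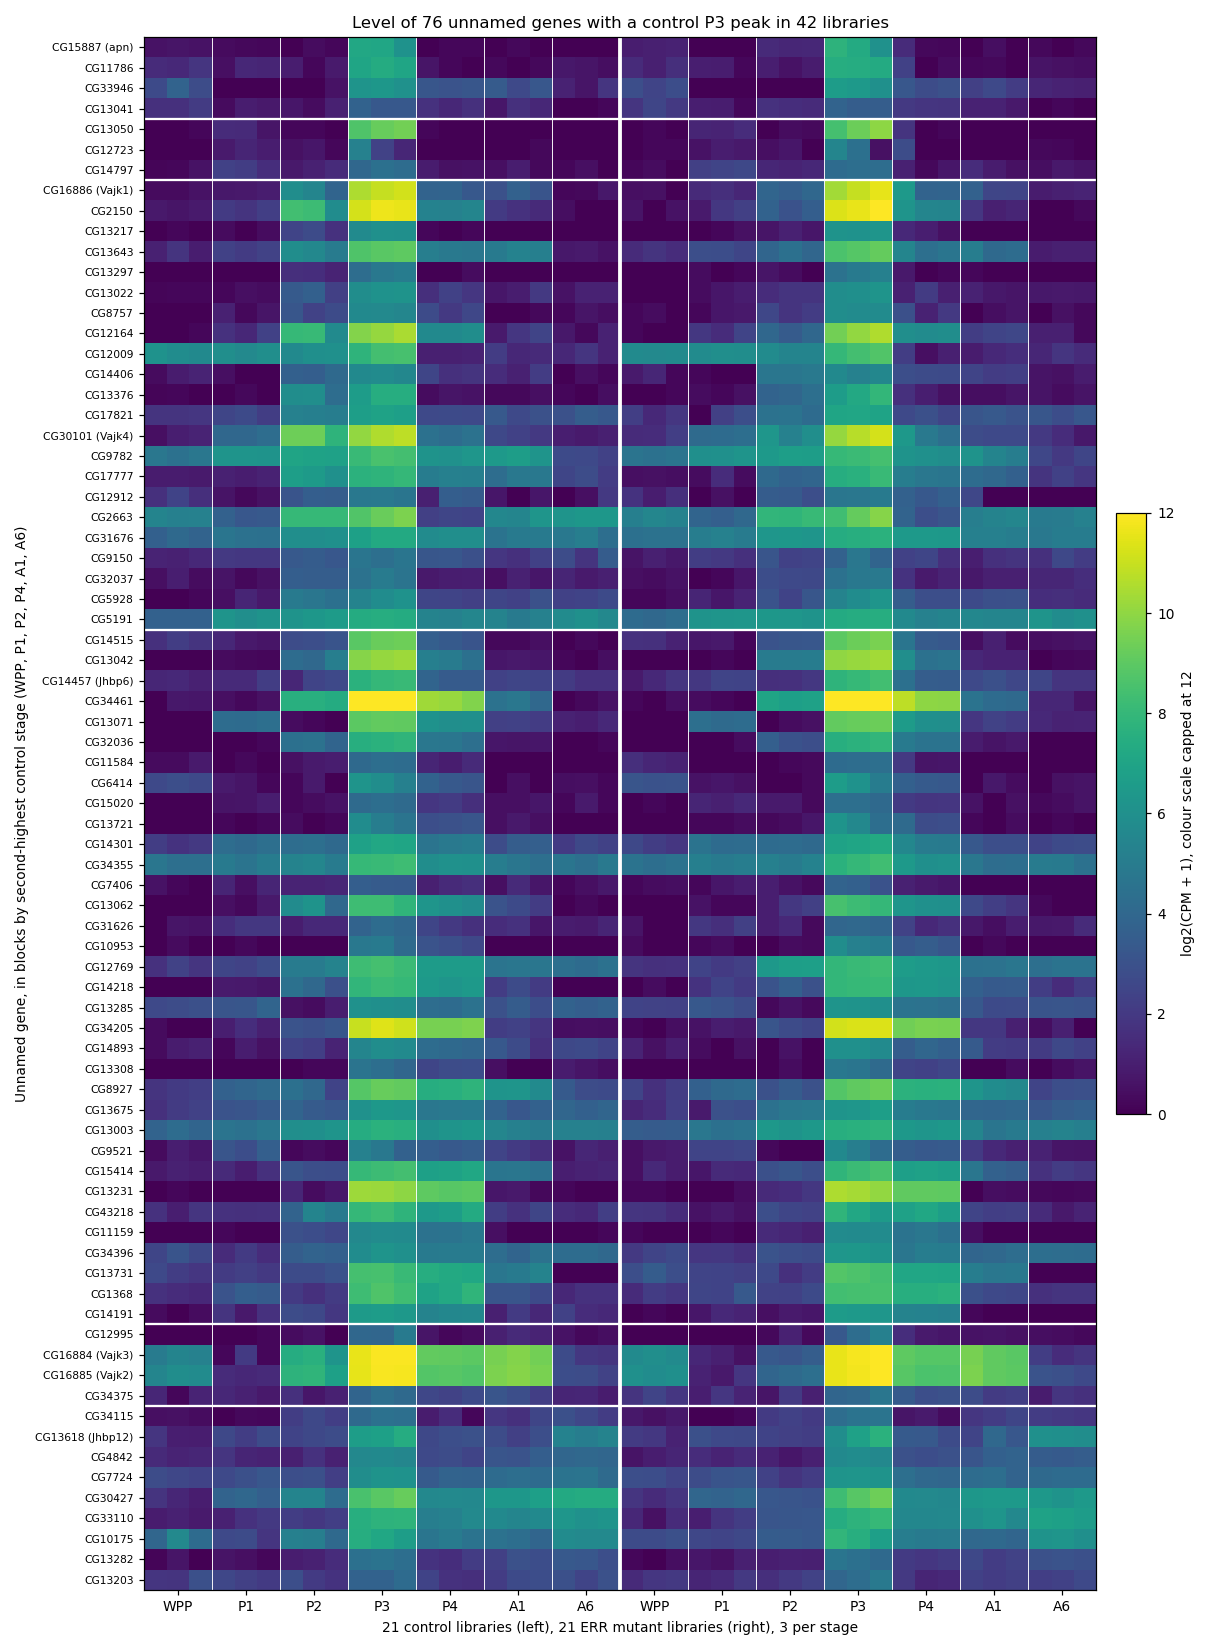
Level of the 76 genes as log2(CPM + 1), with 1 row per gene and 1 column per library (21 control libraries on the left, 21 ERR mutant libraries on the right, 3 per stage). White horizontal lines separate blocks of genes by their second-highest control stage, and the bright P3 columns stand out in both genotypes.

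Within the set, control P3 means spanned 10.1 to 21059 CPM with a median of 130.6 CPM, where 10 genes had 1059 CPM or more and 41 had 100 CPM or more, while 12 lay under 20 CPM. The ratio of P3 to the next highest control stage exceeded 10 for 11 genes and stayed under 3 for 28, with a median of 3.29. At the edge of the rule, CG5191, CG1368 and CG14191 had ratios of 2.07, 2.04 and 2.003 and were taken. CG13144, CG17324 and CG42540, with 1.98, 1.96 and 1.89, were not.

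The sharpest burst belonged to CG13050, a gene of unknown role on 3L (16278458 to 16279271, minus strand, dm6). Its control P3 libraries had 413.9, 593.0 and 700.8 CPM and its mutant P3 libraries 353.2, 639.2 and 1002 CPM, while no library of another stage exceeded 2.55 CPM. The genotypes overlapped, and the ratio to the next stage was 238 in controls and 266 in mutants. CG15887, now named apn (apnoia), encodes a membrane protein needed for growth of the larval tracheal tubes. It had 146.0, 134.8 and 68.0 CPM in control and 215.6, 160.5 and 66.4 CPM in mutant P3 libraries, again with overlap, and at most 1.76 CPM at other stages. CG14515 had 487.2, 615.2 and 645.4 CPM in control and 508.8, 625.6 and 755.7 CPM in mutant P3 libraries. CG11786 had 130.7, 166.2 and 132.0 CPM in control and 178.3, 169.5 and 160.8 CPM in mutant P3 libraries, which overlapped, and at most 3.92 CPM elsewhere. In both genotypes replicate 1 was the lowest for CG13050 and CG14515 and replicate 3 the lowest for apn.

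The most abundant product came from CG34461, which RefSeq also lists as Cpr66Ca, a name of the large CPR family of chitin-binding cuticle proteins. It lies on 3L (8325859 to 8328307, plus strand, dm6). It reached 18641, 22854 and 21681 CPM in control and 17657, 20661 and 24983 CPM in mutant P3 libraries, and the genotypes overlapped. At P2 it had 188.9, 188.9 and 164.3 CPM in control and 128.0, 107.9 and 113.9 CPM in mutant libraries. These did not overlap, and the gene was not called at P2 (edgeR, adjusted p = 0.0518). Per transcript length, its control P3 level of 14026 ± 1816 FPKM (SD, n = 3; FPKM scales fragments by transcript length and library size) was also the highest of the 76. The next were CG34205 with 3444 ± 666 FPKM, CG16885 with 3441 ± 491 FPKM, CG2150 with 3344 ± 583 FPKM and CG16884 with 3326 ± 423 FPKM, and these 4 did not differ beyond their spread.

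The Vajk genes, a small family of cuticle proteins, were all among the 76. CG16886 (Vajk1), CG16885 (Vajk2) and CG16884 (Vajk3) are neighbours on the minus strand of 2L (13920707 to 13947476, dm6), and CG30101 (Vajk4) lies on another chromosome arm. They differed in the height of the P3 burst and in its flanks. Vajk1 had 1486, 1952 and 2322 CPM in control and 1276, 1967 and 2966 CPM in mutant P3 libraries, and at A1 only 4.49 to 12.3 CPM over both genotypes. Vajk2 had 3006, 3816 and 3701 CPM in control and 3085, 3565 and 4345 CPM in mutant P3 libraries, and Vajk3 had 3156, 3883 and 3851 CPM and 3147, 3709 and 4483 CPM. Unlike Vajk1, both stayed high after P3. At P4 the control and mutant means were 448 and 420 CPM for Vajk2 and 534 and 474 CPM for Vajk3. At A1 the libraries had 499 to 916 CPM for Vajk2 and 493 to 883 CPM for Vajk3. Both were also present at WPP, with 31.02 to 63.02 CPM over the 2 genes. Vajk4 had 1061, 1528 and 1794 CPM in control and 1089, 1684 and 2408 CPM in mutant P3 libraries.

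**Figure D2:**
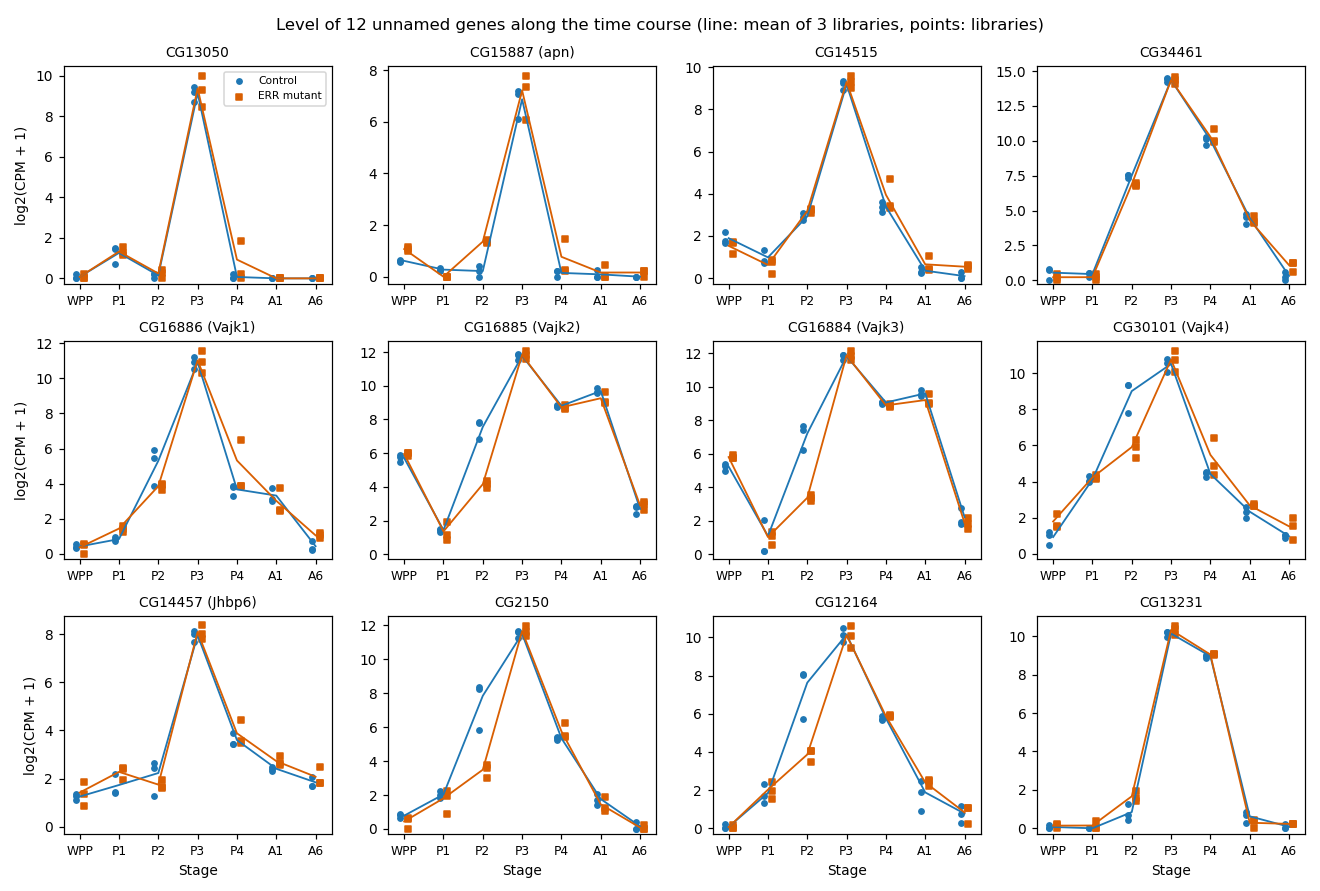
Level along the 7 stages (x axis) as log2(CPM + 1) (y axis) of 12 of the genes, with circles for control libraries, squares for ERR mutant libraries and lines through the means of 3. The genotypes overlap at P3 in every panel, and the mutant lies below the control at P2 for CG16885, CG16884, CG30101, CG2150 and CG12164. For CG34461 the mutant also lies below the control at P2 without overlap, by a smaller gap that was not called.

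CG14457 and CG13618 carry names of the juvenile hormone binding protein family, whose members resemble carriers of that hormone. CG14457 (Jhbp6) had 205.1, 253.6 and 281.4 CPM in control and 222.4, 259.1 and 331.2 CPM in mutant P3 libraries, and at most 20.4 CPM elsewhere. CG13618 (Jhbp12) had 101.6, 113.6 and 171.6 CPM in control and 57.7, 114.6 and 201.9 CPM in mutant P3 libraries, and a late second rise to 33.04 to 40.43 CPM in control and 58.4 to 64.7 CPM in mutant A6 libraries. RefSeq further lists the older names GMCtheta2 for CG9521, FOHSDR for CG8757 and SPH211 for CG14218. For most of the others no role is annotated in the sources used here.

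The 21 mutant libraries took no part in the choice and were used to ask whether the burst is there as well. P3 was the highest mutant stage for 76 of the 76 genes, and 72 met the full criteria in mutants alone. The median mutant ratio was 4.38. By edgeR's quasi-likelihood test with Benjamini-Hochberg adjustment over 13672 genes, all 76 were higher at mutant P3 than at mutant P2, against 19.7% of all genes tested. At P3 against P4 the count was 74, with 19.7% of all genes tested as background. Against all 6 other mutant stages at once, 74 of the 76 were higher at P3, and 4.2% of all genes tested were.

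CG12912 and CG43218 were the pair not called between mutant P3 and P4. CG43218 had 230.1, 143.2 and 91.7 CPM in the mutant P3 libraries and 115.6, 140.8 and 106.2 CPM in the mutant P4 libraries, which overlapped. In controls its P3 libraries, with 251.4, 300.2 and 225.9 CPM, stood above all P4 libraries, which had 86.8 to 159.4 CPM. The exons of CG12912 overlap those of Hr3, a nuclear receptor of the moulting hormone cascade, and of CG46321 on the same strand, so its counts are uncertain. Besides CG43218, with a mutant ratio of 1.28, the genes that missed the criteria in mutants were CG14406 with 1.70, CG1368 with 1.84 and CG33110 with 1.98.

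CG12723 entered through 1 library. Its control P3 libraries had 37.6, 4.08 and 1.44 CPM and its mutant P3 libraries 42.9, 20.6 and 0.464 CPM. Without control P3 replicate 1 it left the set, together with CG7406, CG13041 and CG9521. Leaving out any other single control library removed 0 to 4 genes.

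At P3 itself the genotypes were compared next. Control libraries also chose the genes, which bears on this count and on all genotype counts that follow. No gene of the 76 was called between mutant and control at P3 by edgeR's quasi-likelihood test, while 0.446% of all genes tested were. An unadjusted p under 0.05 was found for 3 of the 76, and DESeq2 also called 0. The P3 libraries of the genotypes overlapped for 69 genes, the mutants lay above the controls for 7 and below them for 0, and over all genes 10.6% did not overlap at P3. The ratio of mutant to control means ran from 0.598 to 1.70 with a median of 1.08.

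**Figure D3:**
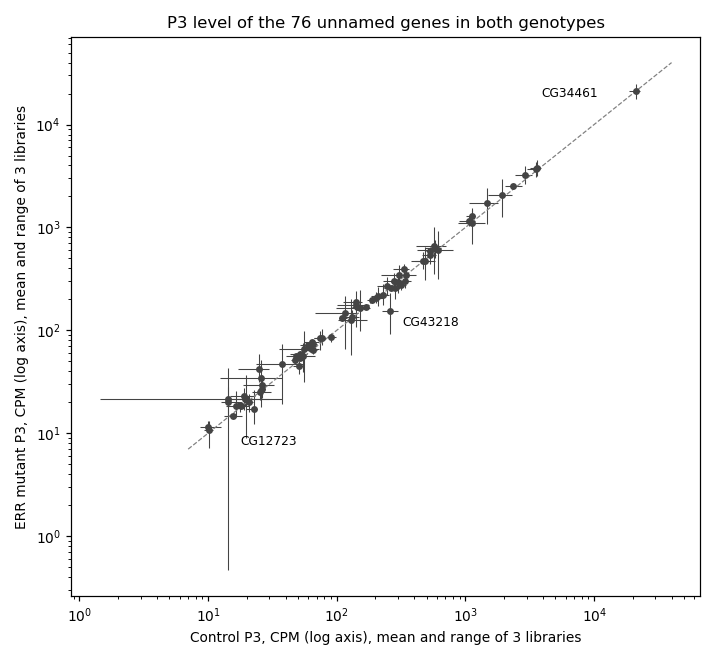
Mean P3 level of each of the 76 genes in the control (x axis) and in the ERR mutant (y axis), both in CPM on log axes, with bars from the lowest to the highest of 3 libraries and a dashed line at equal levels. The points follow the line from 10.1 to 21059 CPM, CG43218 lies under it with a ratio of 0.598, and CG12723 has the widest bars.

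The precision of the P3 comparison differed between genes. For CG34461 the log2 difference, mutant minus control, was 0.0038 with a standard error (SE) of 0.242, for Vajk2 (CG16885) 0.06 with an SE of 0.197, and for CG2150 0.16 with an SE of 0.355. For CG43218 it was -0.74 with an SE of 0.297 (edgeR, adjusted p = 0.718). The median coefficient of variation between the 3 libraries was 14.3% in controls and 17.6% in mutants. Smaller differences were not detectable with 3 libraries a group, and a p above the threshold does not show that the levels were equal.

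The P3 libraries of a group also differed among themselves. Replicate numbers follow the order of the samples, since the labels give none, and pair no libraries across genotypes. Control P3 replicate 1 was the lowest of its 3 libraries for 50 of the 76 genes, and mutant P3 replicate 1 was the lowest of its own for 46. Each library was placed on the control time course, on a scale from 1 at WPP to 7 at A6, by its profile over 2000 other genes. The control P3 libraries stood at 4.07, 4.00 and 3.96 and the mutant P3 libraries at 4.04, 4.00 and 3.98. The part of these positions in the levels was not tested.

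At P2, the stage before, more of the genes were called between genotypes than at any other stage. Of the 76 genes 26 were called lower in mutants, against 8.79% of all genes tested, and 5 were called higher, against 2.78%. The median log2 difference over the 76 was -0.72, and over all genes tested it was -0.0040. For 22 of the 26 the 3 mutant libraries lay below the 3 controls without overlap, and the control mean exceeded the mutant mean by 1.70- to 22.4-fold, with a median of 4.27-fold. Without regard to calls, the mutants lay below the controls for 29 genes and above them for 9, while 26.2% of all genes did not overlap at P2.

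CG2150, also listed as GCR1 and Pen100DE, showed the widest gap. It had 331.8, 302.6 and 55.9 CPM in the control P2 libraries and 12.8, 7.08 and 10.9 CPM in the mutants. The lowest control was above the highest mutant, and the log2 difference was -4.57 with an SE of 0.440 (edgeR, adjusted p = 4.36e-09). At P3 the same gene had 2414, 3268 and 3077 CPM in controls and 2641, 3126 and 3995 CPM in mutants.

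Vajk2, Vajk3 and Vajk4 were all lower in mutants at P2. Vajk2 (CG16885) had 216.3, 233.3 and 112.4 CPM in control and 14.3, 16.6 and 19.5 CPM in mutant P2 libraries, a log2 difference of -3.58 with an SE of 0.230 (edgeR, adjusted p = 7.32e-13). Vajk3 (CG16884) had 171.7, 197.2 and 73.1 CPM against 9.32, 8.07 and 10.7 CPM, with a log2 difference of -4.08. Vajk4 (CG30101) had 660.0, 660.5 and 222.3 CPM against 78.5, 38.1 and 60.4 CPM, with a log2 difference of -3.20. None of the 3 overlapped between genotypes. Vajk1 (CG16886) had 58.6, 43.4 and 13.5 CPM against 14.3, 11.4 and 14.9 CPM, which overlapped, and its call (edgeR, adjusted p = 0.0366) was lost without any 1 of 5 of the 6 P2 libraries.

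CG13217, a gene of unknown role with little RNA outside P3, had 4.57, 5.75 and 2.23 CPM in control and 0.621, 1.15 and 0.666 CPM in mutant P2 libraries, a log2 difference of -2.40 without overlap (edgeR, adjusted p = 7.20e-04). At P3 it had 52.2, 64.6 and 62.4 CPM in controls and 70.8, 67.9 and 75.2 CPM in mutants, which lay above the controls without overlap and were not called.

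CG17777, without an annotated role, had 105.4, 92.8 and 64.4 CPM in control and 16.4, 12.5 and 13.99 CPM in mutant P2 libraries, a log2 difference of -2.71 with an SE of 0.235 (edgeR, adjusted p = 3.58e-10). CG12769 moved the other way, from 31.2, 30.7 and 40.1 CPM in controls to 84.1, 104.0 and 108.8 CPM in mutants, and its log2 difference was 1.43 with an SE of 0.132 (edgeR, adjusted p = 1.26e-09). Neither gene overlapped between genotypes. The 4 others called higher at P2 were CG33110, CG13675, CG14406 and CG13231.

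**Figure D4:**
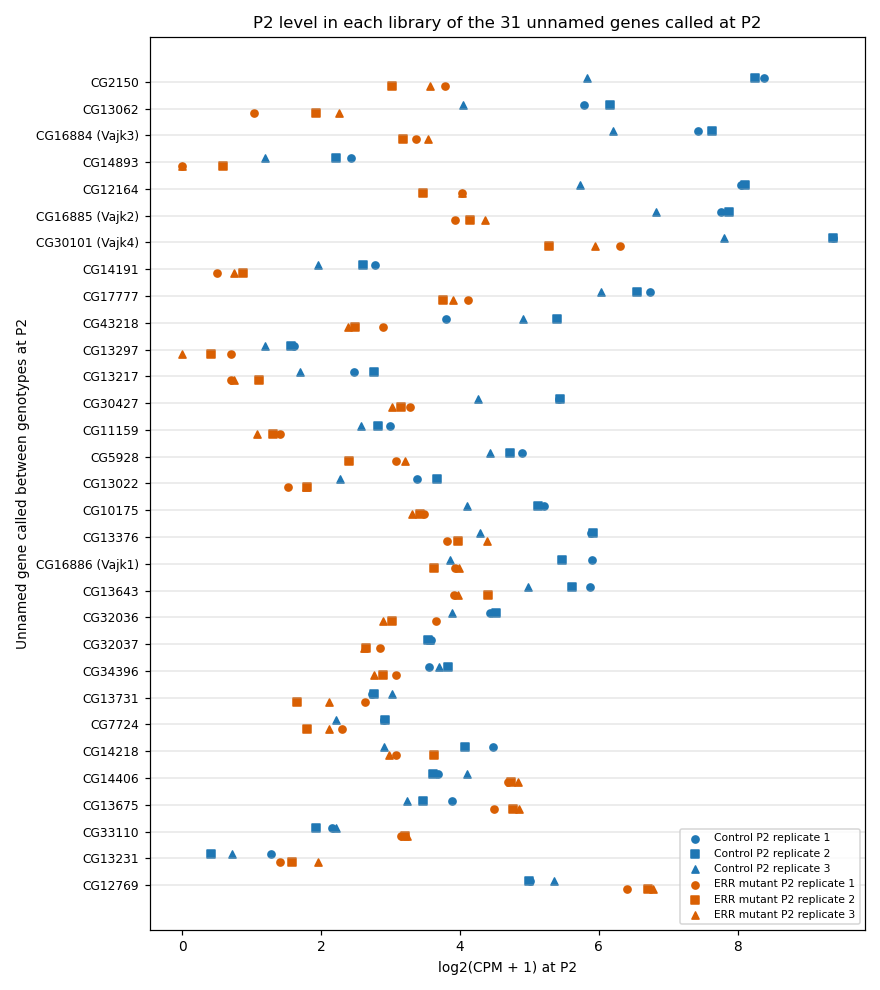
P2 level as log2(CPM + 1) (x axis) in each of the 3 control and 3 ERR mutant libraries for the 31 genes called between genotypes at P2 (y axis), with symbols for the replicate. The 26 genes at the top are lower in mutants and the 5 at the bottom higher, and control P2 replicate 3 (blue triangle) is the lowest control for 22 of the 26.

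Control P2 replicate 3 stood between the other controls and the mutants for many of these genes. It was the lowest control for 22 of the 26 genes called lower, and the median range within the controls was 2.12-fold for the 26. Without it 26 genes were called lower, and leaving out any 1 of the 6 P2 libraries gave 21 to 26. The count called higher was 3 without control P2 replicate 2, mutant P2 replicate 2 or mutant P2 replicate 3, and 4 without each of the other P2 libraries. On the scale of positions, the control P2 libraries stood at 2.99 ± 0.036 (SD, n = 3) and the mutant P2 libraries at 2.81 ± 0.040 (n = 3), with no overlap. The two-sided exact permutation test gave p = 0.1, the smallest that 3 against 3 libraries allow, while at P3 the means were 4.01 and 4.01 (exact permutation p = 1). At A6 the mutant libraries also stood lower without overlap, at 6.85 against 6.99 (exact permutation p = 0.1). The scale ends at 7 and the A6 controls stood at 6.98 or more, so a library could hardly be placed above them.

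Other gene lists shifted at P2 as well. Of 15 lists of tissue and matrix genes, the summed level was lower in mutants without overlap for 9 and higher for 3. Some lists share genes, such as Gasp in the chitin and trachea lists, and the midgut and male accessory gland lists, with 1.15 to 4.60 CPM and 1.48 to 3.95 CPM in all, were near 0, so these are not 12 separate shifts. The 79 named cuticle protein genes summed to 6360 to 8659 CPM in control and 2469 to 3435 CPM in mutant P2 libraries. The 21 muscle structure genes summed to 15527 to 17225 CPM against 9696 to 11659 CPM. The 12 genes of zona pellucida-domain matrix proteins, which link the epidermis to the forming cuticle, went from 6306 to 8374 CPM up to 10328 to 11296 CPM. At P3 the count was 0 lists lower and 1 higher. The part of these shifts and of the library positions in the P2 calls was not tested.

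Whether the P2 difference was larger than that at P3 was tested directly, after both had been seen. The P2 difference minus the P3 difference was called for 24 of the 76 genes by edgeR, with 22 lower and 2 higher, against 5.16% and 1.13% of all genes tested. Its log2 size was -4.73 for CG2150, -4.14 for Vajk3 (CG16884) and -3.64 for Vajk2 (CG16885).

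The genes also differ in what surrounds the burst. By the second-highest control stage, 34 of the 76 had their shoulder at P4, 22 at P2, 9 at A6, 4 each at WPP and A1, and 3 at P1. Of the 22 genes with a P2 shoulder, which include Vajk1, Vajk4, CG2150 and CG12164, 12 were called lower and 1 higher in mutants at P2, against 8.79% and 2.78% of all genes tested. A high control P2 mean placed them in this group and is also 1 side of that test, so the count is a description. Of the 34 genes with a P4 shoulder, 9 were called lower and 3 higher at P2. For the 9 with an A6 shoulder the counts were 3 and 1, and for the 4 with an A1 shoulder 2 and 0. With a WPP or P1 shoulder, 0 were called, and the control P2 means of these genes were only 0.107 to 1.23 CPM. From levels so near 0, a lower level in mutants could hardly be called. The second-highest stage was the same in mutants for 54 of the 76. CG34461 and CG13231 had their shoulder at P4: CG13231 had 513.6, 473.9 and 504.0 CPM in control and 536.4, 532.9 and 513.0 CPM in mutant P4 libraries, and at most 2.89 CPM at any stage other than P3 and P4.

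Few of the genes were called between genotypes outside P2. The count was 2 at WPP, 1 at P1, 1 at P4, 4 at A1 and 9 at A6, against 0.651%, 0.797%, 0.856%, 2.9% and 11.4% of all genes tested. At A6 the members' share of 11.8% was thus close to the background, and the mutant A6 libraries stood at 6.82 to 6.88 on the scale of positions against 6.98 or more for the controls, whose part in these calls was not tested. These small counts depended on single libraries. The A1 count was 9 without mutant A1 replicate 1 and 2 without mutant A1 replicate 3, and the A6 count was 4 without control A6 replicate 3, mutant A6 replicate 1 or mutant A6 replicate 2, and 5 without mutant A6 replicate 3. The WPP count was 1 without control WPP replicate 3 or any 1 of the mutant WPP libraries. The P1 count was 0 without any 1 control P1 library or mutant P1 replicate 2, and 2 without mutant P1 replicate 3. At P4 the count was 0 when replicate 1 of either genotype or replicate 2 of the controls was left out. At P4 the library mutant P4 replicate 1 was the highest of its 3 for 58 of the 76 genes, as it was for 35.7% of all genes with counts there. Vajk1 (CG16886) had 89.9, 13.3 and 13.7 CPM in the mutant P4 libraries, and that library stood at position 4.90 against 5.00 for the other mutant P4 libraries.

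CG14191 and CG7406, neighbours on the plus strand of the X chromosome (19077720 to 19082566, dm6), were at or near 0 in mutants at A1 and A6 and kept their P3 burst. CG14191 had 90.6, 99.1 and 83.3 CPM in control and 94.3, 89.0 and 76.8 CPM in mutant P3 libraries. At A6 it had 23, 9 and 9 counts in controls and 0, 0 and 0 in mutants, which is at least 14.6-fold lower when the mutants are set to 3 counts over the group (edgeR, adjusted p = 1.48e-05). At A1 it had 5, 16 and 7 counts in controls and 1, 0 and 0 in mutants (edgeR, adjusted p = 8.16e-04). At P2 it was also called lower in mutants (edgeR, adjusted p = 4.66e-05). Its P2 libraries had 5.83, 5.09 and 2.86 CPM in controls and 0.414, 0.824 and 0.666 CPM in mutants. CG7406 had 2, 9 and 3 counts in control and 0 in all mutant A1 libraries, at least 5.73-fold lower (edgeR, adjusted p = 0.0102), and this call was lost without control A1 replicate 2 or without mutant A1 replicate 3. At A6 its controls were near 0 too, with 1, 2 and 4 counts against 0 in all mutants, at least 2.49-fold lower (edgeR, adjusted p = 0.0474). The A6 call was lost without any 1 of 5 of the 6 A6 libraries.

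CG14218 went the opposite way at A6, A1 and P1. It had 0 counts in all control A6 libraries and 20, 12 and 19 in the mutants, at least 15.9-fold higher with the controls set to 3 counts over the group (edgeR, adjusted p = 1.17e-05). At A1 it had 3.39, 5.79 and 3.21 CPM in control and 11.6, 9.66 and 10.1 CPM in mutant libraries (edgeR, adjusted p = 0.0239), and at P1 0.840, 0.771 and 0.621 CPM against 2.37, 4.26 and 3.17 CPM (edgeR, adjusted p = 0.0205). The genotypes did not overlap at these 3 stages, and the A1 and P1 calls were each lost without any 1 of 4 libraries. At P2 it was called lower in mutants (edgeR, adjusted p = 0.044), a call also lost without any 1 of 4 libraries. Its P2 libraries had 21.3, 15.8 and 6.52 CPM in controls and 7.45, 11.4 and 6.88 CPM in mutants, which overlapped. At P3 its levels of 234.7, 288.1 and 262.9 CPM in controls and 247.0, 261.7 and 272.2 CPM in mutants overlapped.

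CG2663 had 72.5, 80.7 and 81.7 CPM in control and 29.1, 30.4 and 37.8 CPM in mutant A6 libraries, a log2 difference of -1.26 without overlap (edgeR, adjusted p = 0.00103). CG30427 had 156.5, 164.2 and 164.4 CPM against 83.8, 70.8 and 89.5 CPM at A6, with a log2 difference of -0.98 (edgeR, adjusted p = 0.00163). CG9782 was lower at A1, with 87.0, 101.4 and 72.8 CPM in control and 70.8, 41.8 and 32.5 CPM in mutant libraries (edgeR, adjusted p = 0.00132). CG10175 was lower at WPP, with 14.4, 49.9 and 17.1 CPM against 5.59, 5.70 and 6.61 CPM (edgeR, adjusted p = 8.25e-04). CG5928 was lower at A6, with 3.93, 4.31 and 5.43 CPM in control and 1.95, 2.04 and 1.82 CPM in mutant libraries (edgeR, adjusted p = 0.0182), a call lost without control A6 replicate 3 or any 1 of the mutant A6 libraries. For these 5 genes the lowest control was above the highest mutant. At P2, CG30427, CG10175 and CG5928 were called lower in mutants too, with log2 differences of -2.20, -1.68 and -2.01.

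CG31676 was higher in mutants at WPP and P4. It had 11.9, 16.3 and 13.02 CPM in control and 20.8, 22.3 and 22.3 CPM in mutant WPP libraries, a log2 difference of 0.64 (edgeR, adjusted p = 0.0483). At P4 it had 54.3, 60.4 and 59.6 CPM against 88.3, 86.7 and 83.7 CPM, a log2 difference of 0.60 (edgeR, adjusted p = 0.0343). The genotypes did not overlap at either stage, and each call was lost without any 1 of 5 of the 6 libraries of its stage. At P3 the mutants also lay above the controls, with 171.6, 184.8 and 202.8 CPM against 111.5, 157.8 and 156.7 CPM, and the gene was not called (edgeR, adjusted p = 0.552). The same held at P2, with 76.8, 79.7 and 76.4 CPM in mutants against 59.6, 60.1 and 63.9 CPM (edgeR, adjusted p = 0.354). Mutant and control means were 33.6 and 22.2 CPM at P1, 35.3 and 26.85 CPM at A1, and 30.2 and 26.6 CPM at A6, without a call.

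**Figure D5:**
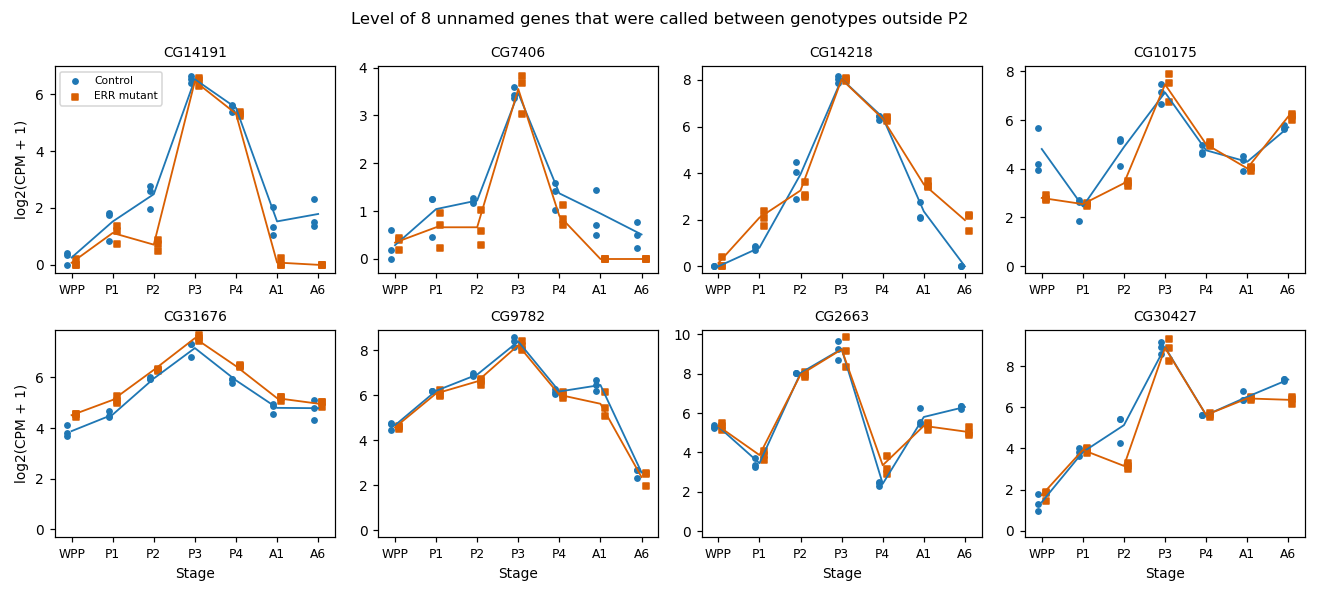
Level along the 7 stages (x axis) as log2(CPM + 1) (y axis) of 8 genes called between genotypes at a stage other than P2, with circles for control libraries, squares for ERR mutant libraries and lines through the means of 3. CG14191 and CG7406 fall to or near 0 in mutants at A1 and A6, and at A6 CG14218 is above 0 in mutants and at 0 in controls. CG7406 is also low in controls, with means of 0.934 CPM at A1 and 0.427 CPM at A6. CG14191, CG14218, CG10175 and CG30427 were also called lower in mutants at P2.

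In the genome, 23 of the 76 genes lie on 3L, 16 on X, 15 on 3R, 14 on 2R and 8 on 2L. Their share on 3L was 30.3%, and 19.4% of all CG-named genes over the 10 CPM minimum lie there. Runs of members with starts within 20 kb of each other were Vajk1 to Vajk3 on 2L, CG13042, CG13062 and CG13041 on 3L, and the pairs CG32036 with CG32037, CG13071 with CG13050, CG1368 with CG11584, and CG7406 with CG14191. Neighbours did not always act alike at P2. In the first pair, CG32036 fell by 1.26 and CG32037 fell by 1.08 on the log2 scale in mutants, both called, while in the run on 3L CG13062 fell by 4.30 and its neighbours CG13042 and CG13041 were not called.

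The densest stretch, found after the values were seen, covers 106779 bp of 3L (16262740 to 16369518, dm6) and holds 6 of the 76 genes among 48 protein-coding genes. They are CG13071, CG13050, CG13042, CG13062, CG13041 and CG4842. Of the 42 non-members 11 were also highest at P3 in controls, and the share of all genes highest at P3 was not computed for comparison. Among the 11, CG4962 had a control P3 mean of 2396 CPM and CG13065 had 1983 CPM. CG13048, CG13060, CG4982 and CG13058 had only 0.655 to 1.755 CPM, and mRpS34, ringer and Pdh had ratios of 1.07 to 1.19. The cuticle protein gene Cpr72Ec, 1 of the 11, met the ratio with 1416 CPM. The other 31 non-members were highest at another stage. Of the 42 non-members, 13 had a mean under 10 CPM at every control stage. CG13067, a neighbour of CG13071, had its highest control mean at P4 with 1639 CPM and 781.7 CPM at P1, and the cuticle gene Cpr72Ea had 6245 CPM at P1 and 8.90 CPM at P3.

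All 76 genes are annotated as protein-coding. Their median protein length was 252 residues, and it was 399 residues for the other CG-named genes over the 10 CPM minimum. Proteins under 200 residues made up 39.5% of the first and 19.4% of the second group. Among genes with names, the criteria were met by 24 of 79 cuticle protein genes, all 24 of them also in mutants. They were met by 1 of 12 zona pellucida-domain genes (zye), by 1 of 17 genes of chitin synthesis and modification and by 1 of 7 tracheal genes, the last 2 being the same gene, Gasp, a chitin-binding protein of the tracheal lining. No gene of the muscle, photoreceptor, neuron, testis, male accessory gland, gut, fat body, haemocyte, sensory organ support or ovary lists met them. Of the 23 tanning and pigment genes, 0 met them as well. These counts hold for the listed genes only. For example yellow-d2, Xport-A, Xport-B, Syt12 and clumsy, which are on none of the lists, met the criteria with ratios of 2.04 to 2.79. In the male accessory gland, gut and ovary lists, no gene reached 10 CPM at control P3. The named genes with the highest ratios were Osi20 with 575, Osi18 with 471, Osi19 with 378 and Osi15 with 249, all of the Osiris family, several members of which take part in cuticle formation in flies.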

How the data were processed

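Levels of whole-fly poly(A) RNA came from stranded Illumina TruSeq libraries, per the labels' protocols. The authors deposited estimated counts per gene, which were whole numbers and were used as they stand, and FPKM values, used only to compare levels between genes. Per the submitters' processing notes the genome build was dm6, and the notes list, with no order or role, DESeq2 1.22.2, RSEM 1.3.1, cutadapt 1.16 and STAR 2.7.0f. The strand setting and annotation are not given in the sources used here, so genes that overlap others may share reads (13 of the 76, 2 of them on the same strand).

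Members followed the rule given above, applied to counts divided by library totals. Members, context lists and tests were chosen with earlier results of these data known, and the test of P2 against P3 differences was added after both had been seen. Groups came from the genotype and time point labels. All 42 libraries entered 1 edgeR 4.0.16 fit (R 4.3.3) of 14 groups with TMM scaling and filterByExpr, which kept 13672 genes, all 76 members among them, and left 28 residual degrees of freedom. The robust quasi-likelihood test was used, with Benjamini-Hochberg adjustment over all genes tested, and genes with an adjusted p under 0.05 are called. DESeq2 1.42.0, its size factors in edgeR, no low-count filter, fits of only the libraries compared, and leaving out each library were alternatives. Positions used log2(CPM + 2) over 2000 genes that change between control stages, without the members, and the control course.

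Named genes were those with the 10 highest ratios and 10 highest control P3 levels, up to 5 called at each stage without overlap by adjusted p, those at the edge of the rule (the last 3 inside and the next 3 outside, since 76 genes did not fill the planned 100), runs of neighbours and the 5 lowest mutant ratios; the text gives the values of those that describe each group. CG12723, CG12912 and other genes outside these lists were named after their values were seen. Gene positions and names came from Ensembl release 115 (BDGP6.54, dm6 coordinates), where 99.4% of identifiers were found, and from RefSeq. Sequence features planned for these genes were not computed here. Library totals of 4308848 to 7737140 counts make 1 CPM worth a few counts, and bounds use 3 counts over a group and cover counting error only.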

Additional observations from a re-analysis of the deposited data

Results flagged for a closer look

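The genotype difference of 24 of the 76 genes was not the same at P2 and at P3, by a test of the difference itself (edgeR's quasi-likelihood test, Benjamini-Hochberg adjusted over 13672 genes) that was added after both differences had been seen. Of the 24, 22 were lower and 2 higher, against 5.16% and 1.13% of all genes tested. The P2 difference minus the P3 difference, on the log2 scale and as mutant minus control, was -3.64 for CG16885 (Vajk2), -2.66 for CG17777, -4.14 for CG16884 (Vajk3), 1.61 for CG12769 and -4.73 for CG2150. For all 5 the 3 mutant and 3 control libraries did not overlap at P2 and overlapped at P3. The mutant P2 libraries also stood lower on the control time course, at 2.77 to 2.85 against 2.95 to 3.02, and the part of this in the difference was not tested.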

How the results depend on the processing

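The P3 count stayed at 0 in all alternative runs. Except at P2, the genotype counts joined higher and lower calls, so they do not show whether a direction changed. The small counts moved most. With only the 6 libraries of the stage in the fit, 0 genes were called at WPP, 0 at P1 and 2 at A1, in place of 2, 1 and 4. At P1 2 were called with DESeq2 size factors and 2 with DESeq2, and at P4 2 with DESeq2; the cause was not tested. Leaving out 1 library at a time gave 1 to 2 calls at WPP, 0 to 2 at P1, 21 to 26 lower and 3 to 4 higher at P2, 0 to 1 at P4, 2 to 9 at A1 and 4 to 6 at A6. The 9 at A1 came without mutant A1 replicate 1. It gave 72 to 74 for mutant P3 above P4, 19 to 24 for the P2 minus P3 test, 69 to 73 genes meeting the criteria in mutants and 72 to 76 members kept. Other settings gave 20 to 28 genes lower at P2 and 4 to 7 higher, and other settings of the rule kept 64 to 76 members. No paired analysis was possible because the labels give no replicate numbers, and those used here only name libraries in sample order. Genes under 1 CPM rest on a few counts a library, which limits the calls at WPP, P1, P2, P4, A1 and A6. At P2, 17 of the 76 genes had a control mean under 1 CPM.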
